A study of Mus musculus with 8 samples.

Results

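The genes described here encode the hemidesmosome, the junction that fixes basal keratinocytes to the basement membrane, together with chains of laminin-332, its extracellular ligand, and collagen VII, which anchors the basement membrane to the dermis. Membership was set by gene name, with earlier results of these data known. The group held 9 genes, namely Itga6, Itgb4, Cd151, Col17a1, Plec, Dst, Lama3, Lamb3 and Col7a1. Of these, 8 had at least 1 probe, 33 probes in all, and Lama3 was not analysed here. All 8 genes passed the filter on dim probes and were tested, among 9881 genes in all.

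The samples were keratinocytes from the skin of E18.5 mouse embryos of the C57Bl6 strain, grown in culture to confluency and profiled on 8 Illumina expression arrays. Cells of 4 arrays lacked the type I keratins (KO) and cells of the other 4 were wild type (WT). Each genotype had arrays numbered 1, 2, 3 and 1.1, and the number 1.1 was read as a second array of replicate 1. Averaging by that reading is called as labelled below. The labels name no treatment. They do not say whether each replicate was a separate embryo, so the p-values cover the spread between these cultures and no more.

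The log2 differences between arrays KO 1.1 and KO 3 had an SD of 0.213 over bright probes, and those between WT 1.1 and WT 1 an SD of 0.205. For every other same-genotype pair the SD was 0.418 to 0.640, and KO 1.1 stood at 0.640 from KO 1, which goes against that reading of its number. The 2 close pairs were averaged and each entered as 1 replicate, giving 3 KO and 3 WT replicates, and values with KO 1.1 averaged as labelled are given for Plec and Lamb3, whose differences they moved most. The targeted genes matched the genotype labels. Krt17 read -6.48 to 0.81 on KO arrays, against 16655 to 19131 on WT arrays, and Krt14 read -2.90 to 9.28 on KO arrays, against 17836 to 19131 on WT arrays. The 7 markers of basal keratinocytes were above the background limit, an intensity of 6.30, on all 8 arrays.

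In a hemidesmosome, integrin α6β4 and the transmembrane collagen XVII bind laminin-332 outside the cell. Inside the cell the plakins plectin and dystonin (BP230) bind these receptors and hold the keratin filaments, which in basal cells pair a type I with a type II keratin. Loss of any of several of these proteins causes skin blistering in humans. The comparison addressed here is whether the transcripts of the junction differ in cells that lack the type I partners of the filaments it anchors.

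No member passed the test between genotypes. In limma's test with Benjamini-Hochberg adjustment over all genes, 0 of 8 members had an adjusted p under 0.05, against 0.708% of all genes tested, and the members' adjusted p values ran from 0.115 to 0.720. With each of their 18 bright probes tested on its own, 0 passed as well, against 0.796% of all probes. At an unadjusted p under 0.05 there was 1 of 8, Col7a1, against 17.1% of all genes. The collagen VII gene Col7a1 was also the only member whose KO replicates lay wholly on 1 side of the WT replicates. Of all genes, 22.5% showed such a separation, 10.9% with KO lower. Of the 8 members, 5 had a positive KO minus WT difference and 3 a negative one, with a median log2 difference of 0.30, while the median over all genes was 0.02. The median size of the difference without regard to sign was 0.36 for the members and 0.21 for all genes, and the median standard error was 0.22 for the members and 0.19 for all genes. All log2 values are differences of log2(intensity + 16). The offset of 16 understates the differences of dim genes. The medians of the members and of all genes were not matched for intensity, so their sizes are not directly comparable.

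**Figure D1:**
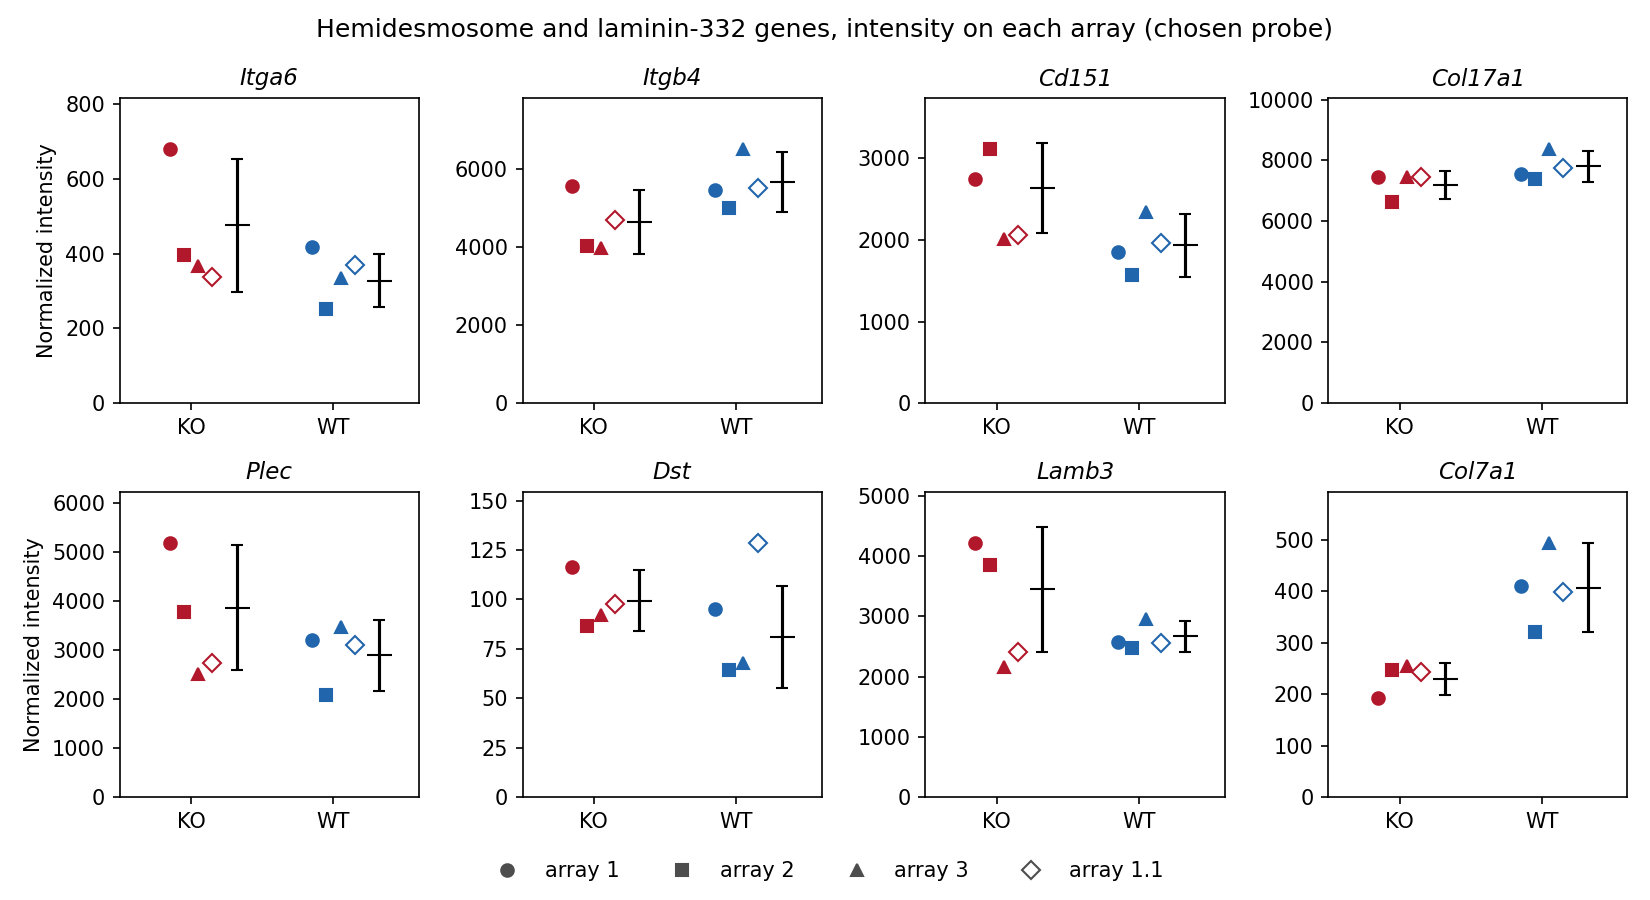
Normalized intensity (y axis, linear, from 0) of the chosen probe of each member on 4 KO arrays (red, left) and 4 WT arrays (blue, right), with the open diamond for array 1.1 and the black bar for the mean ± SD of 3 replicates. Every KO array of Col7a1 lies below every WT array, and in the other 7 panels the genotypes overlap.

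None of the 4 receptor genes passed. Itga6 encodes the α6 chain of the laminin receptor. It read 681, 396, 367 and 339 on KO arrays 1, 2, 3 and 1.1, against 419, 253, 336 and 369 on WT arrays 1, 2, 3 and 1.1. KO array 1 stood above all others, and the remaining KO arrays lay within the WT range. The replicate means were 476 ± 178 in KO and 327 ± 70.6 in WT (SD, n = 3 each). The log2 difference was 0.48 ± 0.28 (SE), with a 95% interval of -0.17 to 1.13 (limma adjusted p = 0.430). Without KO replicate 1 the difference was 0.20, and without WT replicate 2 it was 0.32.

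Itgb4 encodes the β4 chain, whose long cytoplasmic tail binds plectin. It read 5565, 4033, 3963 and 4685 on the KO arrays and 5455, 5007, 6509 and 5498 on the WT arrays. KO arrays 2, 3 and 1.1 lay below every WT array, and KO array 1 lay among them. The means were 4635 ± 816 in KO and 5664 ± 768 in WT (SD, n = 3 each), a difference of -0.29 ± 0.18 with an interval of -0.72 to 0.14 (limma adjusted p = 0.468). Without WT replicate 3 it was -0.19. A second probe had a difference of -0.14 ± 0.17. The estimates for the 2 chains of the receptor had opposite signs, but both intervals included 0 and they overlapped.

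Cd151 encodes a tetraspanin that associates with laminin-binding integrins. It read 2752, 3116, 2008 and 2055 on the KO arrays, against 1850, 1566, 2338 and 1956 on the WT arrays. KO arrays 1 and 2 were above every WT array, and the others lay within the WT range. The difference was 0.44 ± 0.22, with an interval of -0.08 to 0.96 (limma adjusted p = 0.368). The other 2 probes differed by 0.31 ± 0.20 and 0.39 ± 0.21, so all 3 probes of Cd151 had the same sign.

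Col17a1 encodes collagen XVII, also called BP180, which spans the membrane. It had the smallest standard error of the 8 members, with readings of 7459, 6647, 7459 and 7459 on the KO arrays and 7544, 7388, 8382 and 7748 on the WT arrays. Quantile normalization gives bright probes shared values, as the repeated 7459 shows, so this spread may be too small. The means were 7188 ± 469 in KO and 7805 ± 516 in WT (SD, n = 3 each). The difference was -0.12 ± 0.14, with an interval of -0.45 to 0.21 (limma adjusted p = 0.720). It was -0.063 without KO replicate 2, -0.066 without WT replicate 3 and -0.0089 with the 3 probes averaged. The other 2 probes differed by 0.07 ± 0.16 and 0.02 ± 0.18.

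**Figure D2:**
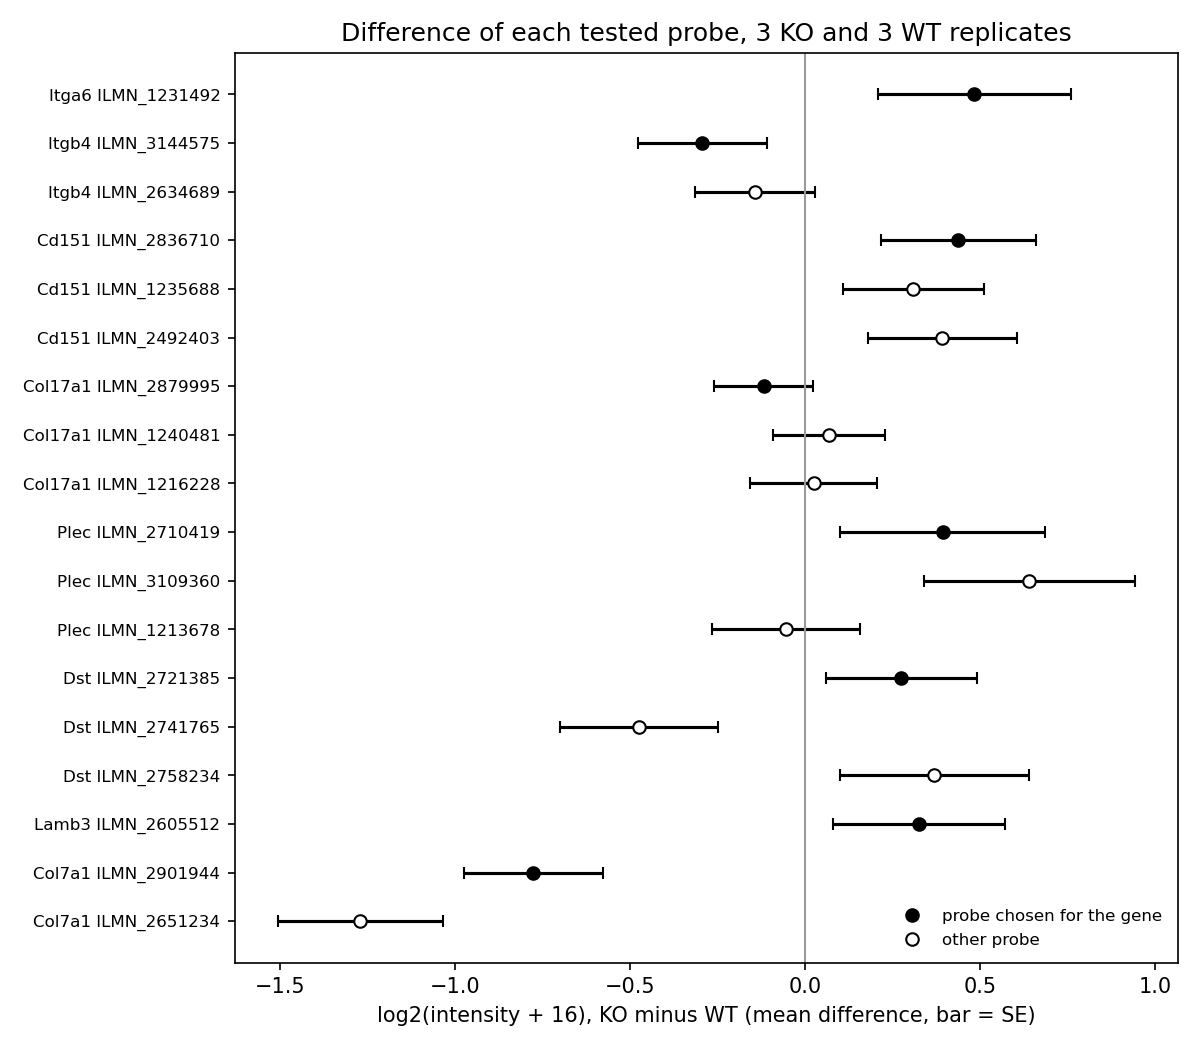
KO minus WT difference in log2(intensity + 16) (x axis) of each of the 18 tested probes of the members (y axis), with bars for the standard error over 3 KO and 3 WT replicates and filled points for the probe chosen for the gene. The 3 Cd151 probes all lie to the right of 0 and both Col7a1 probes to the left, at -0.78 and -1.27, while the tested Dst probes lie on both sides.

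The plakins link the receptors to the filaments. Plec encodes plectin, which binds both the β4 chain and keratins. Its chosen probe read 5199, 3784, 2520 and 2746 on the KO arrays, against 3204, 2081, 3468 and 3100 on the WT arrays. KO arrays 1 and 2 were above every WT array, and KO arrays 3 and 1.1 were within the WT range. The means were 3871 ± 1287 in KO and 2900 ± 727 in WT (SD, n = 3 each), a difference of 0.39 ± 0.30 with an interval of -0.30 to 1.09 (limma adjusted p = 0.552). It was 0.15 without KO replicate 1, 0.64 without KO replicate 3, 0.17 without WT replicate 2 and 0.22 with KO 1.1 averaged as labelled.

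A second bright Plec probe again placed KO arrays 1 and 2 above every WT array. It read 1212, 888, 516 and 530 on the KO arrays and 543, 429, 584 and 610 on the WT arrays, a difference of 0.64 ± 0.30 (limma adjusted p = 0.329 over all probes). The gene has several first exons, and its 14 probes were annotated to 11 transcript records. One more probe was above the background limit on 2 of 4 KO arrays and 1 of 4 WT arrays, and its means of 4.58 in KO and 5.02 in WT lay under the limit. Of the remaining 11, 7 were not above the limit on any array and 4 were above it on fewer than 3. Their readings ran from -8.86 to 8.79. The Plec signal measured here therefore rests on 2 of the 14 probes, and the annotation does not say which isoforms these read.

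**Figure D3:**
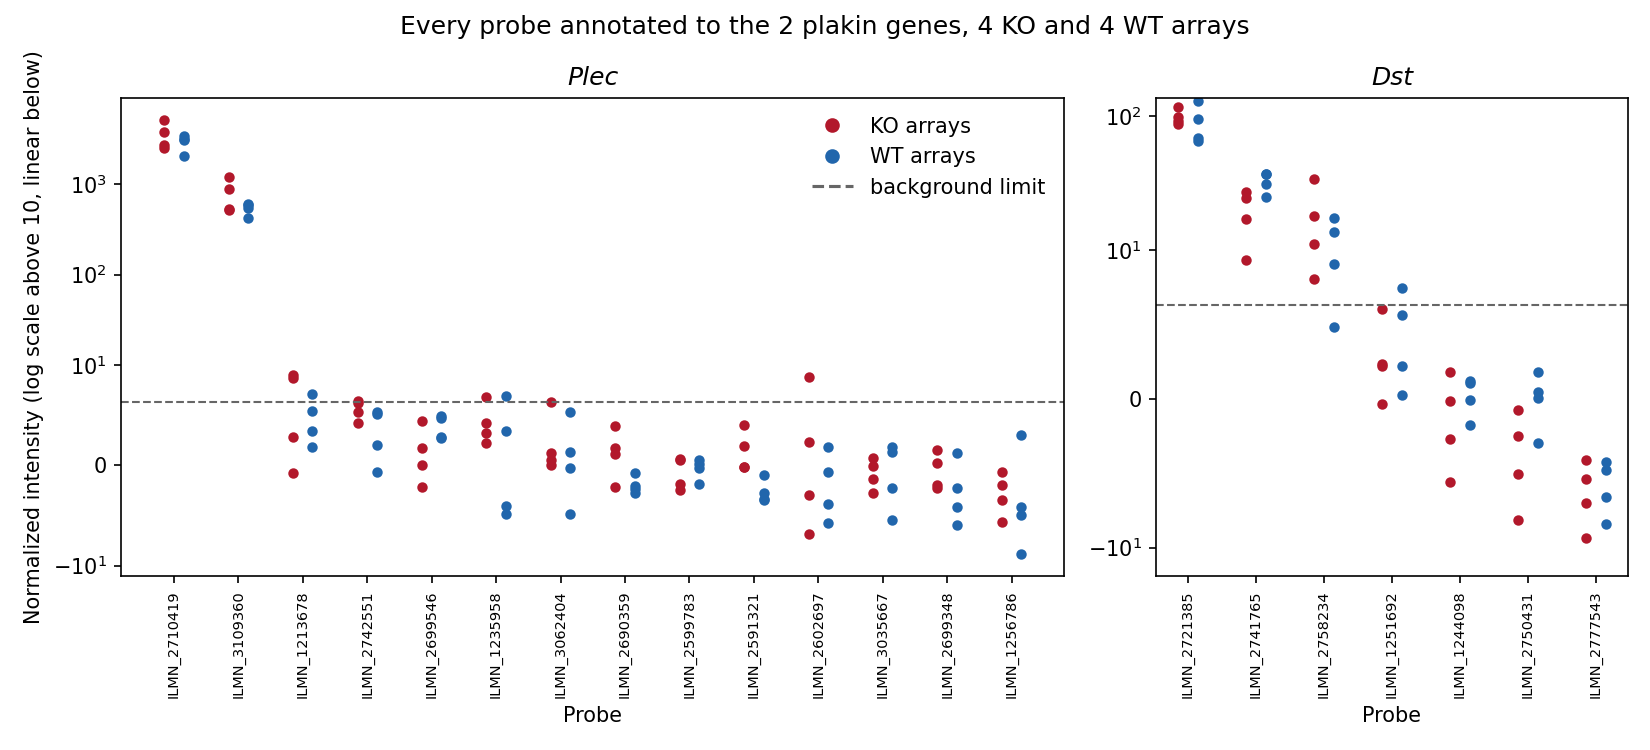
Normalized intensity (y axis, log scale above 10 and linear below) of every Plec probe (left) and Dst probe (right) on 4 KO arrays (red) and 4 WT arrays (blue), with the background limit of 6.30 as a dashed line. On all 8 arrays, 2 of 14 Plec probes and 2 of 7 Dst probes lie above the limit.

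Dst encodes dystonin, whose epithelial isoform BP230 is the other plakin of the hemidesmosome, while further isoforms serve nerve and muscle. Its chosen probe was dim, with 117, 86.6, 91.9 and 97.9 on the KO arrays and 95.1, 64.3, 67.6 and 129 on the WT arrays. The genotypes overlapped, and the 2 arrays averaged as WT replicate 1 read 95.1 and 129. The difference was 0.27 ± 0.22, with an interval of -0.23 to 0.78 (limma adjusted p = 0.574). It was 0.48 without WT replicate 1, 0.15 without WT replicate 2 and 0.17 without KO replicate 1. With an offset of 64 it was 0.18, and with array weights 0.042.

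The tested Dst probes disagreed. A second probe read 9.28, 27.2, 24.5 and 16.9 on the KO arrays, against 36.7, 24.6, 36.6 and 31.2 on the WT arrays, a difference of -0.47 ± 0.23 (limma adjusted p = 0.335 over all probes). The remaining tested probe differed by 0.37 ± 0.27, with 3 of its 4 WT arrays above the limit. With the bright probes averaged, the Dst difference was 0.06. The 7 probes were annotated to 2 transcript records, 5 to 1 and 2 to the other, of 4 curated Dst records in RefSeq. The annotation does not say whether any of them reads BP230.

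The laminin-332 ligand was measured through Lamb3, its β3 chain. Lamb3 read 4224, 3847, 2151 and 2405 on the KO arrays, against 2567, 2476, 2956 and 2556 on the WT arrays. KO arrays 1 and 2 lay above every WT array and KO arrays 3 and 1.1 below every WT array. The 3 KO replicates thus fell on both sides of a narrow WT range, with means of 3448 ± 1034 in KO and 2665 ± 256 in WT (SD, n = 3 each). The difference was 0.32 ± 0.25, with an interval of -0.25 to 0.90 (limma adjusted p = 0.557). It was 0.60 without KO replicate 3, 0.15 without KO replicate 1 and 0.16 with KO 1.1 averaged as labelled.

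Collagen VII forms the anchoring fibrils beneath the basement membrane, and its gene gave the clearest separation of the group. The chosen Col7a1 probe read 193, 246, 254 and 242 on the KO arrays, against 411, 322, 495 and 398 on the WT arrays. The highest KO array, at 254, lay below the lowest WT array, at 322. The means were 229 ± 31.5 in KO and 407 ± 86.5 in WT (SD, n = 3 each), 0.584-fold in KO. The log2 difference was -0.78 ± 0.20, with an interval of -1.24 to -0.31 before adjustment, but limma's adjusted p over all genes was 0.115. Permuting the genotypes of the 6 replicates (exact, two-sided) gave p = 0.1, and no smaller value is possible with 3 against 3.

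A second, dimmer Col7a1 probe also had every KO array below every WT array. It read -1.77, 7.02, 11.5 and 6.20 on the KO arrays, against 25.0, 27.3, 39.3 and 38.6 on the WT arrays, and was above the background limit on 2 of 4 KO arrays and 4 of 4 WT arrays. Its KO mean of 4.65 lay under that limit, so its log2 difference of -1.27 ± 0.24 (limma adjusted p = 0.0604 over all probes) depends on the offset of 16 and is not an exact size. Both probes read the same transcript and the same RNA, so they are not independent replicates of the genotype. Over 19 alternatives, some of which leave the estimate unchanged, the Col7a1 difference kept its sign, from -1.02, with this dim probe averaged in, to -0.63. It passed in 1 of these, with arrays weighted by their quality (adjusted p = 0.0357, over a range of 0.0357 to 0.363), where 9.51% of all genes passed.

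Fibroblasts also make collagen VII, so markers of that cell type are given beside this result. Of the 8 fibroblast markers, 6 were bright enough to test, none passed (0 had an unadjusted p under 0.05 in limma), and Col1a2 was not above the limit on any array. Their summed intensity ran from 201 to 473 on the KO arrays and from 47.9 to 1040 on the WT arrays. The WT range thus spanned the KO range, and the part of such cells in the Col7a1 difference was not tested. In cultures of mixed cells, fewer cells of a type and less RNA per cell cannot be told apart.

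The sequences before the start sites of the 2 collagen genes are shown. Among the members, Col7a1 gave the clearest separation and Col17a1 the smallest log2 difference. They are RefSeq's, build GRCm38.p6, 250 bases up to the annotated start, read 5′ to 3′ on the gene's strand. Col7a1 lies on the plus strand at chr9:108953336-108953585 and Col17a1 on the minus strand at chr19:47692043-47692292. Capitals mark matches to the GC box GGGCGG and the TATA box TATAAA.

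Col7a1: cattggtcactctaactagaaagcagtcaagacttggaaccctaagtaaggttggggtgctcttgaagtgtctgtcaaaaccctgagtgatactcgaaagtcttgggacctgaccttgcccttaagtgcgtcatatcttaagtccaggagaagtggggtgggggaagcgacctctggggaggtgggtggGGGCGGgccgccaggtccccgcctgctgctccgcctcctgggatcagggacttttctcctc

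Col17a1: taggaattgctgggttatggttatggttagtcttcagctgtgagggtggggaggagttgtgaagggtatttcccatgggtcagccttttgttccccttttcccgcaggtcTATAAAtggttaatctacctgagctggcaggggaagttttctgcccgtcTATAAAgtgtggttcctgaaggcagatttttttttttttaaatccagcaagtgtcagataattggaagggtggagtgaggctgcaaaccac

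Both strands were searched for these motifs and for the AP-1 site TGANTCA, and no matches overlapped. The Col7a1 window held 1 GC box, starting 61 bases before the annotated start, and no TATA box. The Col17a1 window held 2 TATA boxes, starting 140 and 91 bases before the start, and no GC box. No AP-1 site was found in either. Of the 32851 windows of the same length in the table, 32.7% held a GC box, 12.4% a TATA box and 6.75% an AP-1 site. Neither a GC box nor a TATA box is thus particular to these windows. The shares are of windows with at least 1 match, and windows with 2 TATA boxes were not counted apart. Windows were given for 5 of the 9 members, and the matches describe letters and not binding.

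Several members shared their high and low cultures. Among WT replicates, WT 2 was the lowest in 8 of 8 members, and was the lowest in 35.3% of all genes. Among KO replicates, KO 1 was the highest in 5 members, against 38.4% of all genes, and was tied with KO 3 in Col17a1. KO 3 was the lowest KO replicate for 4 of 8 members, Itga6, Cd151, Plec and Lamb3. This is close to its share over all genes, 44.1%. Centred on each gene's own mean, Plec stood at 0.68, 0.22 and -0.30 in KO replicates 1, 2 and 3, against -0.04, -0.64 and 0.09 in WT replicates 1, 2 and 3. Lamb3 stood at 0.50, 0.37 and -0.39 in KO, against -0.21, -0.26 and -0.01 in WT. The members had no single order in KO. The lowest KO replicate was KO 2 for Itgb4, Col17a1 and Dst, and KO 1 for Col7a1, at -0.61.

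**Figure D4:**
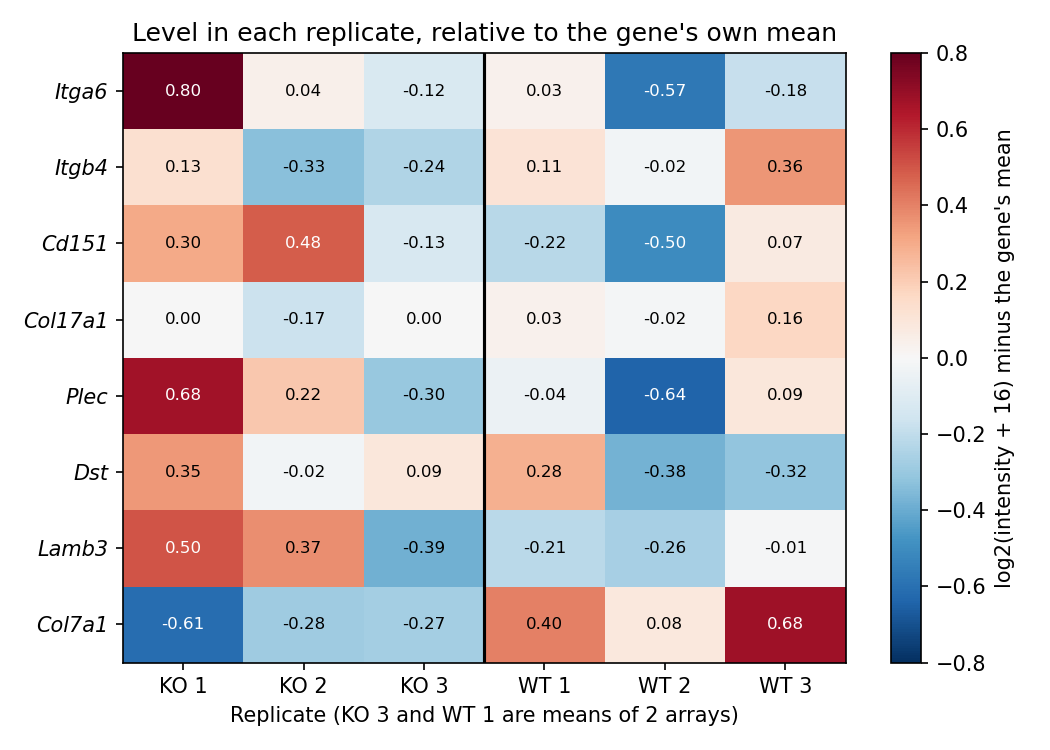
Level of each member (rows) in each replicate (columns, KO left of WT), as log2(intensity + 16) minus the gene's own mean over the 6 replicates, red for above and blue for below. WT 2 is the lowest WT value in every row, and in the KO columns Itga6, Cd151, Plec and Lamb3 are lowest in KO 3.

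Differentiated keratinocytes leave the basement membrane and lose hemidesmosomes, so their markers are given beside these replicate values. KO replicate 3 was the highest KO replicate for 6 of the 8 tested markers but not for Krt1 or Krtdap, and was the highest in 31.1% of all genes. The cornified envelope gene Lor read 227, 266 and 3034 in KO replicates 1, 2 and 3, against 261, 375 and 167 in WT. Ivl, involucrin, read 105, 132 and 793 in KO, against 81.8, 57.9 and 32.2 in WT. Krtdap, a keratinocyte differentiation gene, read 3572, 5585 and 5199 in KO, against 9608, 10530 and 6997 in WT. Of the 8 markers, 0 passed in limma and 4 had an unadjusted p under 0.05, in both directions. Ivl and Cnfn had positive differences, 1.79 ± 0.69 and 1.87 ± 0.75, while Krtdap and the dim Krt1 had negative ones, -0.92 ± 0.23 and -0.39 ± 0.14. Their summed intensity, with all 9 that had a probe, ran from 4494 to 11403 on KO arrays and from 7515 to 11768 on WT arrays. Tgm3 was not above the limit on any array. The part of this difference between cultures in the member values was not tested.

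Of the basal markers, 0 of 7 passed (2 with an unadjusted p under 0.05 in limma), and their summed intensity was 14739 to 17947 on KO arrays and 17399 to 19629 on WT arrays. Of the 7, 6 had a negative difference, at a median of -0.27. In 3 of the 7, Trp63, Dsg3 and Cdh1, every KO replicate lay below every WT replicate, as in 10.9% of all genes. Dsg3, desmoglein 3, differed by -0.45 ± 0.16, Trp63 by -0.67 ± 0.20 and Cdh1, E-cadherin, by -0.13 ± 0.13. Krt5, the type II keratin of basal cells, averaged 8667 ± 1411 in KO and 9007 ± 939 in WT (SD, n = 3 each). The part of these marker differences in the member values was not tested. Melanocyte markers were summed to 349 to 1603 on KO arrays and 902 to 3449 on WT arrays, with 0 of 5 passing and 0 with an unadjusted p under 0.05 in limma. All 5 had a negative difference, at a median of -0.59. Endothelial markers summed to at most 25.7 on any array, and the immune, neural and muscle markers to at most 13.6.

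Other laminin receptors and their linkers showed no called gene either, with 0 of 9 tested and 1 with an unadjusted p under 0.05 in limma, at a median log2 difference of -0.15. That gene was Itga3, the α3 chain of integrin α3β1, which binds laminin-332 outside hemidesmosomes. Itga3 averaged 7009 ± 1992 in KO and 3071 ± 1505 in WT (SD, n = 3 each), a log2 difference of 1.25 ± 0.36 (limma adjusted p = 0.142). Its KO replicates of 9023, 6964 and 5040 lay above the WT replicates of 2445, 1981 and 4788, by a small margin at the closest pair. Ilk, integrin-linked kinase, differed by 0.65 ± 0.34 (adjusted p = 0.390).

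Among genes that process laminin-332 or belong to the anchoring zone, 8 of 9 had a probe, 5 were bright enough to test and 0 passed (2 with an unadjusted p under 0.05 in limma), at a median difference of -0.27. Fbln1, fibulin 1, averaged 573 ± 101 in KO and 851 ± 24.2 in WT (SD, n = 3 each), a difference of -0.57 ± 0.16 (limma adjusted p = 0.143). Mmp2, a gelatinase, differed by -0.59 ± 0.57. Mmp14, the other gene with an unadjusted p under 0.05 in limma, went the other way, by 0.56 ± 0.23 (adjusted p = 0.283). Its replicates overlapped between genotypes. Of the 5 tested genes, 2 had a positive difference and 3 a negative one. Tll1, Fras1 and Frem1 were not above the limit on any array.

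Among other plakins and partners of plakins or integrin β4, 5 of 10 had a probe, 3 were tested and 0 passed, at a median difference of -0.27. Eppk1 encodes epiplakin, a plakin that binds keratin filaments. It read 810, 381 and 864 in KO replicates, against 3437, 1410 and 1494 in WT replicates, without overlap. Its difference was -1.56 ± 0.43 (limma adjusted p = 0.130), the only one of the 3 with an unadjusted p under 0.05. Ywhaz, a 14-3-3 protein, differed by -0.27 ± 0.14, also without overlap of replicates.

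Of 10 tested transcription regulators of basal adhesion genes, 0 passed and 3 had an unadjusted p under 0.05 in limma, namely Fosl1, Trp63 and Grhl2, and the median difference was -0.14. Fosl1, an AP-1 subunit, averaged 156 ± 45.8 in KO and 38.9 ± 23.9 in WT (SD, n = 3 each), a difference of 1.69 ± 0.34 (limma adjusted p = 0.0773). Trp63 encodes p63, the regulator of basal keratinocyte identity. It averaged 2135 ± 399 in KO and 3395 ± 457 in WT (SD, n = 3 each), a difference of -0.67 ± 0.20 (limma adjusted p = 0.146). All 3 genes had KO replicates wholly on 1 side of the WT replicates, Fosl1 above and Trp63 and Grhl2 below.

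The genes with profiles most like those of the 2 members with the greatest differences were found by the root mean square difference of centred log2 values over 6 replicates. For Col7a1 these were Rpl22, a ribosomal protein gene, at 0.04, Csgalnact1 at 0.11 and Pdk1 at 0.11. Rpl22 averaged 290 ± 33.1 in KO and 535 ± 113 in WT (SD, n = 3 each), and none of the 3 passed (limma adjusted p = 0.103, 0.0960 and 0.139). For Itga6 they were Pkd1 at 0.07, Htt at 0.10 and Rhebl1 at 0.11. With 6 values to a profile, this likeness is a description only.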

How the data were processed

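The deposited table holds 1 normalized intensity per probe and array for 25697 probes. The sources used here do not say how the authors obtained them. The values show background subtraction, with 27.1% to 27.3% of probes negative per array, and quantile normalization, with the same 75th percentile of 98.8 on every array. A non-normalized table was not used, because its 16 value columns match no sample label.

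An offset of 16 was added before log2, which understates the difference of dim genes. The background limit was the 95th percentile of the negative values mirrored around 0. Probes above it on at least 3 arrays were kept, and each gene was represented by its kept probe with the highest mean. Probe genes came from the platform annotation. Of 25697 probes, 23978 had 1 symbol and 1719 none, and 23962 gene IDs were found in RefSeq's mouse table. Genes were compared with limma (lmFit, eBayes) without a block, KO minus WT, at an adjusted p under 0.05, and the fit was tested on simulated data. All adjusted p values are limma's, over all genes unless probes are named. For the counts in gene lists, the shares over all genes were 17.1% with an unadjusted p under 0.05 in limma and 22.5% without overlap of replicates. Named genes were all members, and, of each of the 4 lists of related genes, every called gene or, with fewer than 2 called, the 2 with the greatest differences. Genes named beyond that (Grhl2, Mmp14 and, among cell type markers, Krt5, Dsg3, Cdh1, Lor, Ivl, Krt1, Krtdap, Cnfn) were chosen after their values were seen. A gene of these lists is not reported here. Members and lists were chosen with earlier results of these data known. The pairing of KO 1.1 with KO 3 follows the agreement of the arrays, and pairing as labelled was an alternative. Other alternatives covered offset, filter, probe choice, prior, array weights, centring, block, threshold and each replicate left out. The number of arrays limits the precision. R 4.3.3, limma 3.58.1 and matplotlib 3.10.9 were used.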

Additional observations from a re-analysis of the deposited data

How the results depend on the processing

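In the 19 alternatives, every member kept the sign of its difference. Several of them change only the filter, prior, block or threshold and leave the estimate as it was, so its sign was fixed there. The number of members called was 0 of 8 except with array weights, where it was 1 (Col7a1). The number of genes called over all 9881 varied far more, around 70. It was 261 with KO 1.1 averaged as labelled, 940 with array weights, 299 at an adjusted p under 0.10, and 108 probes when every bright probe was tested. With each replicate left out in turn it ran from 5 to 264. It was 5 without WT replicate 1, 8 without WT replicate 2, 9 without KO replicate 2, 11 without KO replicate 1 and 264 without KO replicate 3, and members called stayed at 0 in each. The cause of these changes was not tested. The genotypes share replicate numbers. A fit with a replicate block called 21 genes and 0 members. Same-numbered replicates deviated together with correlations of only 0.06, 0.02 and -0.35. In either genotype, 0 of 3 replicates correlated best with its own number. The numbers as given thus showed no pairing, but 3 replicates a genotype are too few to exclude a pairing of cultures. The Dst probes disagree in sign, and its dim signal limits what can be measured. With arrays centred on 55 ribosomal protein genes the median log2 difference over all genes was 0.03, against 0.02 without.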
